A study of Mus musculus with 2 samples.

Results

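The 39 genes described here are interferon-stimulated genes, chosen by symbol from a list, out of 43346 genes measured in mouse mammary gland. All 39 were found in the gene tables. Interferons are secreted proteins that cells release when they detect a virus. They bind receptors that signal through JAK kinases to STAT proteins; type I and type III interferons assemble a complex with STAT2 and IRF9 that binds the interferon-stimulated response element, and interferon gamma acts through a separate element. The genes switched on in this way encode sensors of foreign nucleic acid, the transcription factors that extend the response, and effectors that block viral entry, translation or replication, and many are also transcribed at a low level in tissue with no infection.

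The tissue was mammary gland from C57BL/6J mice, a standard inbred laboratory strain, aged 8 weeks. The 2 libraries are labelled biological replicates 1 and 2 of 1 group, and each came from littermates of both sexes pooled; both carry the same donor entry, their health state is given as unknown, and no infection, treatment or genotype contrast is stated. Both were stranded libraries with paired reads of 76 nt, made from poly(A) RNA longer than 200 nt after rRNA depletion, with spike-in RNAs added. The data therefore give the level of each gene in tissue with no stated treatment and how far the 2 replicates differed, and no p-value is given. A difference between 2 pools may be biological or technical, and the labels give no means of telling which.

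Library depth was 56323489 summed expected counts in replicate 1 and 42400470 in replicate 2. Mitochondrially encoded transcripts took 17.4% of TPM (a transcript level corrected for length and depth) in replicate 1 and 4.28% in replicate 2. A list of 4 skeletal muscle genes summed to 20314 TPM in replicate 1, or 2.03% of TPM, and to 10.02 TPM in replicate 2, or 0.001%. Luminal epithelial, myoepithelial, adipocyte, B cell, T cell, macrophage and endothelial markers were detected in both replicates, which goes with the labelled tissue. In bulk tissue, fewer cells of a type and less RNA per cell cannot be told apart.

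The response element that many of these genes are known for could be read in their promoters. RefSeq promoter windows on GRCm38.p6, which run from 250 bases before to 50 bases after an annotated start, were given for 29 of the 39 genes. The core of the interferon-stimulated response element, which is GAAA, any 2 bases and GAAA again, was searched on both strands, and overlapping matches were counted apart. It occurred in 17 of the 29 genes (58.6%), against 3.44% of all 32851 promoter windows and 3.99% of 27025 genes. Of 40 further interferon-stimulated genes with a window, 18 held it (45%). Isg15, whose product is a small protein attached to other proteins in the manner of ubiquitin, held 3 overlapping matches, the most of the 29 genes, and 8 genes held more than 1. The windows below are those with more than 1 match that lie upstream of the start, together with Ifitm2, whose level was among the highest. They are written 5′ to 3′ along the gene's strand, with the matches in capitals; TTTC blocks are the same motif read on the opposite strand.
Isg15, chr4:156200860-156200911 on the minus strand: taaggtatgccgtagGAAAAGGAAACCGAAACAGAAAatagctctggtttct
Bst2, chr8:71537572-71537617 on the minus strand: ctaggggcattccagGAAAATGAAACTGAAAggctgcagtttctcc
Oas1a, chr5:120907526-120907560 on the minus strand: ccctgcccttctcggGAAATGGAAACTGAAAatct
Irgm1, chr11:48871421-48871465 on the minus strand: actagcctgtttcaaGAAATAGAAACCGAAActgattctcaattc
Gbp3, chr3:142559984-142560029 on the plus strand: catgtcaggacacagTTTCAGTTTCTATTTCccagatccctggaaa
Ifit1, chr19:34640770-34640828 on the plus strand: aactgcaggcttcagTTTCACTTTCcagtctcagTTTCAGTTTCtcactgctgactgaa
Ifit3, chr19:34583358-34583431 on the plus strand: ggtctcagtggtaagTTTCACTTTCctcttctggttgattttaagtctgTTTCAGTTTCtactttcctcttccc
Ifitm2, chr7:140955983-140956022 on the minus strand: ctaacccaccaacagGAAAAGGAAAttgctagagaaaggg

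In Isg15, Bst2, Oas1a, Irgm1 and Gbp3 the matches share bases, so that the repeat reads as an unbroken run of GAAA or TTTC blocks, whereas in Ifit1 and Ifit3 they stand apart. The second motif, TTCNNNGAA, is the spacing of the element bound by STAT dimers; it reads the same on both strands. It occurred in 9 of the 29 genes (31.0%), against 8.30% of all promoter windows, 9.55% of genes and 7 of the 40 further interferon-stimulated genes (17.5%). In 5 genes both motifs occurred, and in Bst2 and Ifitm3 they overlapped. Ifi35, Ifit2, Irf1 and Samhd1 held the STAT dimer motif and not the other one. Of these, Irf1 encodes a transcription factor known for its induction by interferon gamma, and its window is shown with the match in capitals.
Irf1, chr11:53769909-53769947 on the plus strand: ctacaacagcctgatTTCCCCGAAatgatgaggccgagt

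Neither motif was found in the windows of Ifi44, Ifitm1, Irf7, Irf9, Oasl1, Oasl2, Trim25 and Xaf1, which says only that these letters do not occur there. A match is a description of the sequence and was not tested for binding in this tissue. The 17 genes with the response element motif ranged from 2.84 to 1007 mean TPM with a median of 16.8, and the 12 without it from 1.70 to 128 with a median of 44.3. The levels of both sets overlapped over most of their range.

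**Figure D1:**
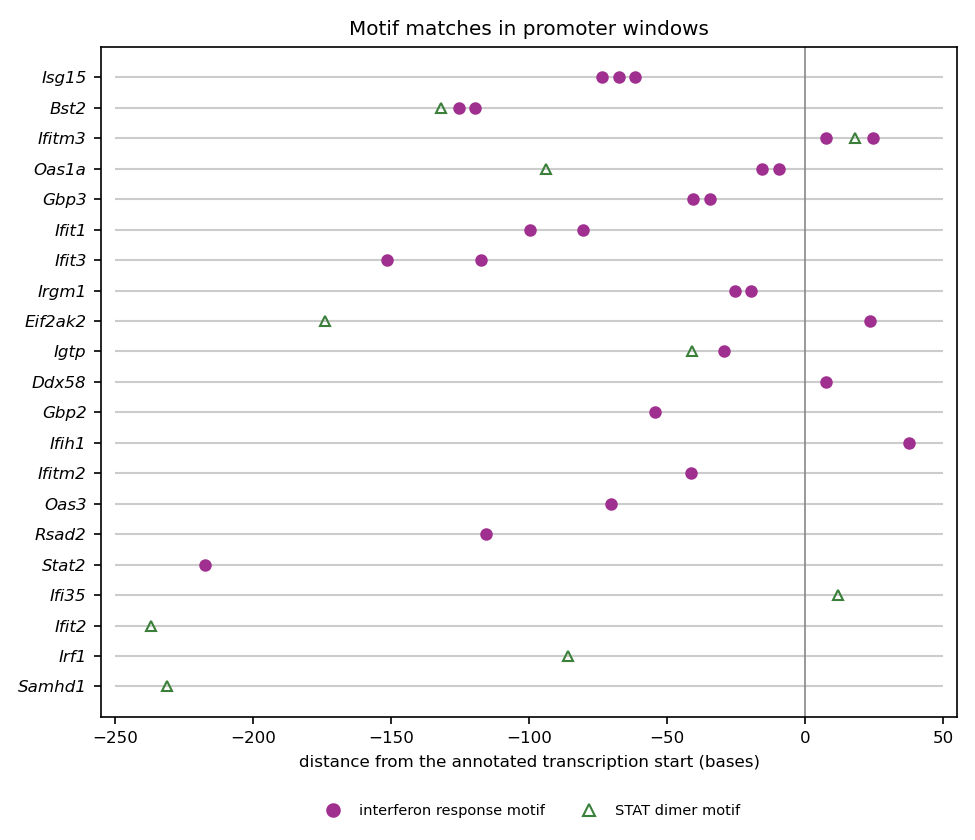
Position of motif matches in the promoter windows of the 21 genes with at least 1 match; the horizontal axis is the distance from the annotated transcription start in bases, filled circles are the centres of response element matches (GAAA blocks) and open triangles the centres of TTCNNNGAA matches. Most circles lie before the start, and those of Ifitm3, Eif2ak2, Ddx58 and Ifih1 lie after it.

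All 39 genes were detected at 1 TPM or more in both replicates. Together they summed to 3762 TPM in replicate 1 and 3934 TPM in replicate 2, a mean of 3848 ± 121 TPM (SD, n = 2), or 0.376% of all TPM in replicate 1 and 0.393% in replicate 2. Their median was 16.02 TPM in replicate 1 and 12.6 TPM in replicate 2, and the median of their mean TPM was 16.8, against 13.0 for the 14510 genes whose mean reached 1 TPM. The sum was carried by a few genes: Ifi27, Ifitm2, Ifitm3 and Bst2 held 77.6% of it in replicate 1 and 72.1% in replicate 2. By mean TPM, 8 genes stood at 100 or more, 17 between 10 and 100, and 14 below 10, so that the set ran from low to among the most abundant transcripts.

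**Figure D2:**
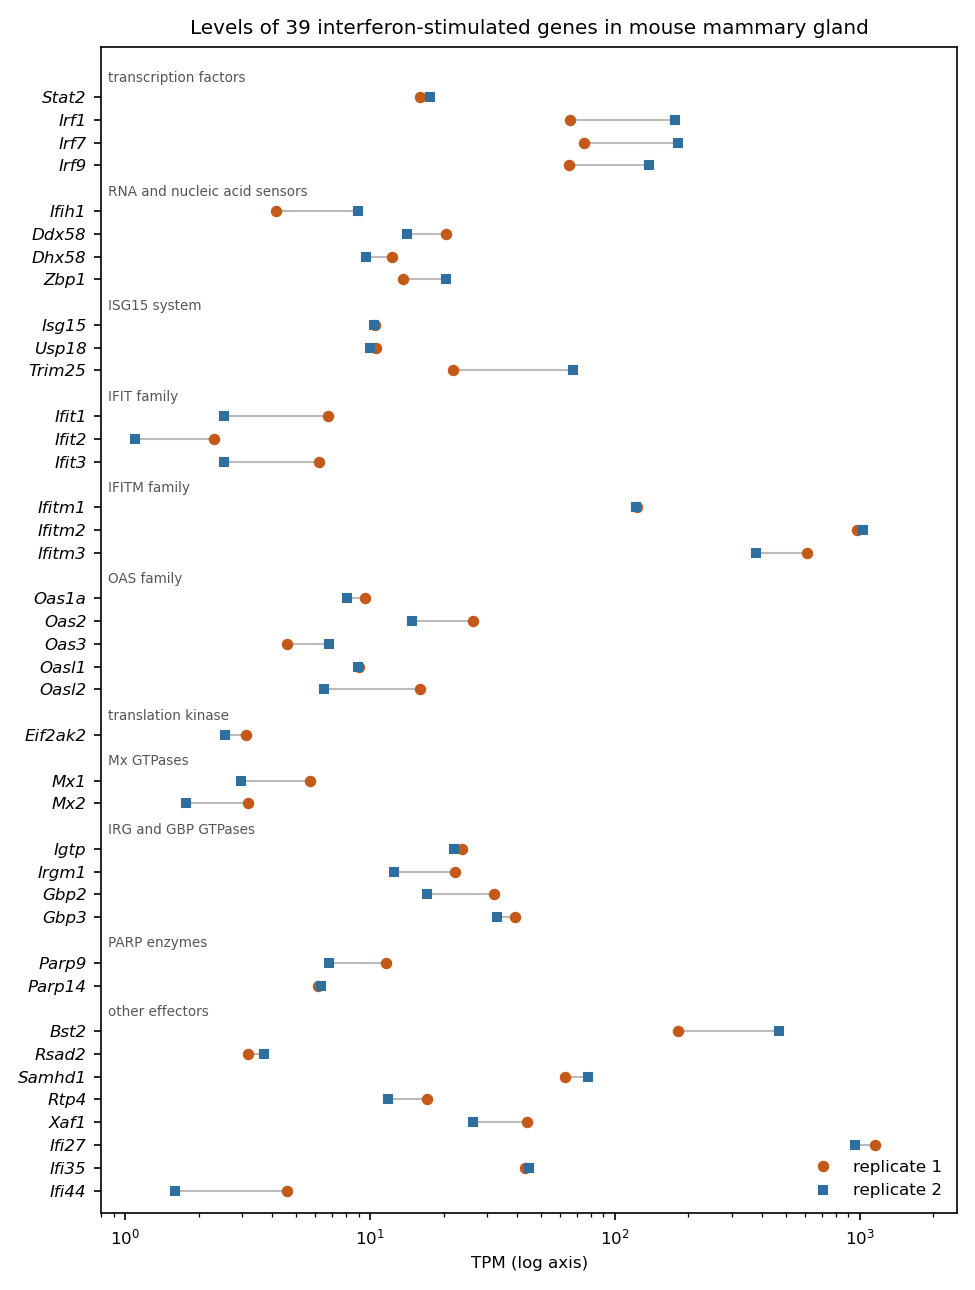
Level of each of the 39 genes in replicate 1 (circles) and replicate 2 (squares), in TPM on a log axis, grouped by role; lines join the 2 values of a gene. Ifi27 and Ifitm2 lie highest, with means of 1054 and 1007 TPM, and Ifit2 lies lowest, at 2.30 TPM in replicate 1 and 1.10 TPM in replicate 2.

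Of the 4 transcription factors of the response, Irf1, Irf7 and Irf9 ranked between percentiles 90.6 and 92.6 of genes at 1 TPM or more and had the higher TPM in replicate 2. Stat2, the STAT protein specific to type I and type III interferon signalling, had 15.98 TPM in replicate 1 and 17.65 TPM in replicate 2. Its DNA-binding partner Irf9 (chromosome 14, 55603571 to 55610030) had 65.2 TPM in replicate 1 and 138 TPM in replicate 2. The other 2 factors belong to the same IRF family as Irf9. Irf1 (chromosome 11, 53770014 to 53778374) had 65.7 TPM in replicate 1 and 176 TPM in replicate 2. Irf7 (chromosome 7, 141262706 to 141266481), which amplifies type I interferon production, had 75.3 TPM in replicate 1 and 181 TPM in replicate 2. Stat2 was thus the lowest of these 4 genes in both libraries and differed least, and the other 3 lay more than 2-fold higher in replicate 2 by TPM.

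In fragment counts the gap was smaller. The log2 ratio of replicate 1 over replicate 2, with each count scaled to its library's total, was −0.63 for Irf1 (95% interval −0.68 to −0.57), −0.73 for Irf7 (−0.78 to −0.67) and −0.38 for Irf9 (−0.44 to −0.32). These are Clopper-Pearson intervals, which cover counting error only and not variation between pools. They may understate even that error, since reads without molecular identifiers are not independent molecules. For Stat2 the ratio was −0.06, with an interval (−0.14 to 0.02) that spanned 0. None of the intervals of Irf1, Irf7 and Irf9 reached 2-fold, whereas the difference in log2(TPM + 1) was −1.41 for Irf1, −1.26 for Irf7 and −1.07 for Irf9.

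TPM divides the count by a transcript length, and that length differed between the replicates for these genes. For Irf1, the longer Irf1-202 (2137 nt) had 56.6 TPM in replicate 1 and 61.6 TPM in replicate 2, while the short coding transcript Irf1-208 (833 nt) had 0 TPM in replicate 1 and 98.9 TPM in replicate 2. For Irf7, the short Irf7-204 (751 nt) had 3.72 TPM in replicate 1 and 85.6 TPM in replicate 2. The longer Irf7 transcripts differed less. For Irf9, the most abundant transcript in both replicates was Irf9-201, a retained-intron form of 630 nt, at 26.2 TPM in replicate 1 and 95.1 TPM in replicate 2. Irf9 also overlaps Rnf31 on the same strand, so fragments in the shared stretch could be given to either gene.

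**Figure D3:**
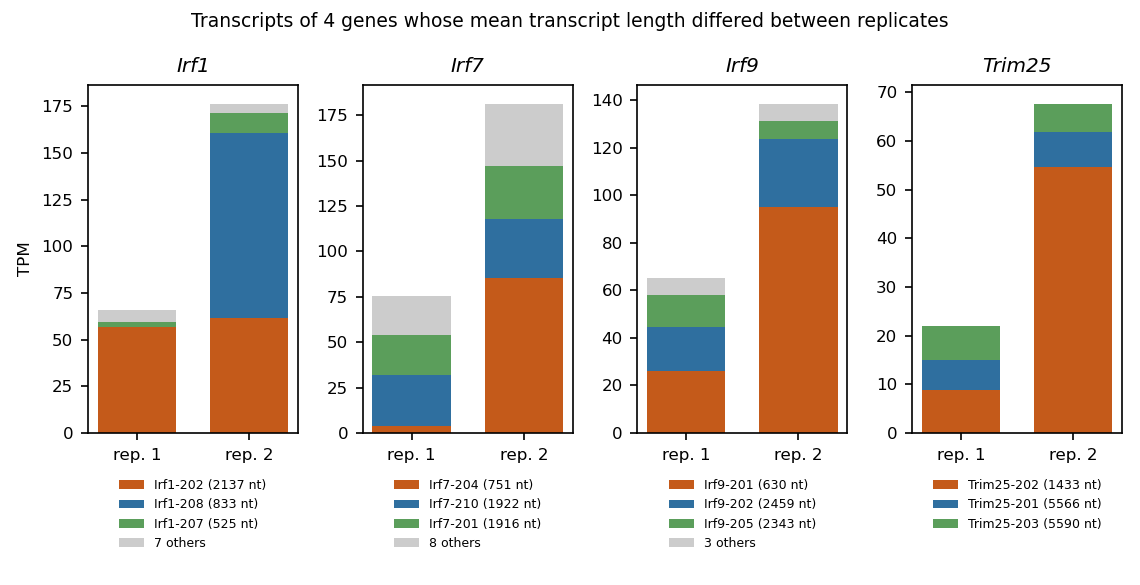
TPM of the 3 most abundant annotated transcripts (colours, with their lengths in nt) and of the remaining ones (grey) for Irf1, Irf7, Irf9 and Trim25, in replicate 1 (left bar) and replicate 2 (right bar). Most of the higher TPM of replicate 2 stands in 1 short transcript of each gene, such as Trim25-202 (1433 nt) at 8.88 TPM in replicate 1 and 54.7 TPM in replicate 2.

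The 4 sensors of foreign nucleic acid had mean levels between 6.54 TPM for Ifih1 and 17.4 TPM for Ddx58. Ddx58, the RIG-I helicase that detects short viral RNA, had 20.5 TPM in replicate 1 and 14.2 TPM in replicate 2. Ifih1, the related MDA5 helicase for long double-stranded RNA, had 4.12 TPM in replicate 1 and 8.95 TPM in replicate 2. These 2 helicases signal through the same adaptor, and they differed between replicates in opposite directions. Dhx58, the LGP2 helicase that modulates both, had 12.3 TPM in replicate 1 and 9.62 TPM in replicate 2. Zbp1, a sensor of Z-form nucleic acid that triggers cell death, had 13.7 TPM in replicate 1 and 20.4 TPM in replicate 2. The 4 sensors split by direction, and their sums were close, at 50.6 TPM in replicate 1 and 53.2 TPM in replicate 2.

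Much of the sensor signal was assigned to forms not annotated as protein-coding. The most abundant Ddx58 transcript, Ddx58-205, is annotated as a processed transcript and took 55.3% of the gene's TPM in replicate 1 and 54.3% in replicate 2. For Ifih1, the coding Ifih1-201 had 2.10 TPM in replicate 1 and 1.05 TPM in replicate 2, whereas the retained-intron Ifih1-205 had 1.53 TPM in replicate 1 and 7.77 TPM in replicate 2. The coding transcript of Ifih1 was thus lower in replicate 2 although the gene's TPM was higher there.

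In the ISG15 system, Isg15 itself (chromosome 4, 156199424 to 156200818) stood at 10.5 TPM (248 fragments) in replicate 1 and 10.4 TPM (173 fragments) in replicate 2. Its log2 count ratio was 0.11 (95% interval −0.18 to 0.40), an interval that spans 0. Usp18, the protease that removes Isg15 from proteins and dampens receptor signalling, was as steady, with 10.6 TPM in replicate 1 and 9.99 TPM in replicate 2. Trim25, a ligase for ubiquitin and Isg15, had 21.9 TPM in replicate 1 and 67.6 TPM in replicate 2. The excess of Trim25 in replicate 2 was again mainly in its shortest transcript, and its log2 count ratio was −0.67 (−0.74 to −0.61), against a log2(TPM + 1) difference of −1.58.

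The IFIT genes, a cluster on chromosome 19 whose products bind viral RNA and block its translation, were among the lowest of the 39. Ifit1 (34640871 to 34650009) had 6.73 TPM in replicate 1 and 2.53 TPM in replicate 2. Ifit3 (34583531 to 34588731) had 6.23 TPM in replicate 1 and 2.54 TPM in replicate 2. Ifit2 (34550694 to 34576419) had 2.30 TPM (236 fragments) in replicate 1 and 1.10 TPM (99 fragments) in replicate 2. All 3 were higher in replicate 1, and their sum was 15.3 TPM in replicate 1 and 6.17 TPM in replicate 2. The log2 count ratio was 1.49 for Ifit1 (95% interval 1.26 to 1.73) and 1.37 for Ifit3 (1.08 to 1.68), both wholly beyond 2-fold, and 0.84 for Ifit2 (0.50 to 1.2). Counts of Ifit1 and Ifit3 were fractional, that is, shared in part with other loci. Ifit3b, a near-identical copy of Ifit3, had 2.84 TPM in replicate 1 and 0.66 TPM in replicate 2, so the split between Ifit3 and Ifit3b is uncertain.

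The IFITM genes, which encode membrane proteins that hinder fusion of viruses with cell membranes, were the most abundant family. Ifitm2 (chromosome 7, 140954837 to 140955987) had 979 TPM in replicate 1 and 1034 TPM in replicate 2, a mean of 1007 ± 38.5 TPM (SD, n = 2), which placed it at percentile 99.2 of genes at 1 TPM or more. Ifitm3 (chromosome 7, 141009586 to 141010770) had 608 TPM in replicate 1 and 377 TPM in replicate 2. Ifitm1 (chromosome 7, 140967221 to 140969825) had 124 TPM in replicate 1 and 122 TPM in replicate 2. The order Ifitm2, Ifitm3, Ifitm1 was the same in both libraries. The largest count ratio of the 3 was that of Ifitm3, 0.78 on the log2 scale (95% interval 0.73 to 0.83) and so below 2-fold, and the smallest was that of Ifitm2, 0.01 (−0.02 to 0.05).

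Of the OAS family, whose enzymes make oligoadenylates that activate the ribonuclease RNase L, Oas2 was highest, at 26.4 TPM in replicate 1 and 14.9 TPM in replicate 2. Oas1a had 9.53 TPM in replicate 1 and 8.05 TPM in replicate 2. Oas3 had 4.60 TPM in replicate 1 and 6.82 TPM in replicate 2. The family did not differ as 1 block, since Oas3 lay higher in replicate 2 and Oas2 in replicate 1. Of the OAS-like genes next to each other on chromosome 5, Oasl2 (114896936 to 114912234) had 16.02 TPM in replicate 1 and 6.51 TPM in replicate 2, and its log2 count ratio was 1.30 (95% interval 1.14 to 1.47). Oasl1 (114923240 to 114937915), which in mouse restrains Irf7 translation, had 9.07 TPM in replicate 1 and 8.99 TPM in replicate 2. Oasl1 had fewer fragments relative to depth in replicate 1, the log2 count ratio being −0.37 (−0.56 to −0.18), so its near-equal TPM rests on a shorter mean transcript length there.

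Forms annotated as retained introns or decay targets led in Oas2 and Oasl2, whereas Oas1a and Oas3 had 0% of TPM from transcripts not annotated as protein-coding. The leading Oas2 transcript, Oas2-204, is annotated as a retained intron and took 48.9% of the gene's TPM in replicate 1 and 59.2% in replicate 2. The leading Oasl2 transcript, Oasl2-205, is annotated as a target of nonsense-mediated decay and took 58.1% in replicate 1 and 45.1% in replicate 2. Eif2ak2, the kinase PKR that halts translation on sensing double-stranded RNA, was low at 3.11 TPM in replicate 1 and 2.56 TPM in replicate 2, although its log2 count ratio was 0.85 (95% interval 0.61 to 1.09).

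Mx1 and Mx2 encode dynamin-like GTPases that block influenza and other viruses, and C57BL/6 mice are known to carry defective alleles of both. Mx1 (chromosome 16, 97447035 to 97462907) had 5.68 TPM in replicate 1 and 2.99 TPM in replicate 2. Its decay-target transcript Mx1-205 (2790 nt) held 66.1% of that TPM in replicate 1 and 95% in replicate 2, while the coding Mx1-202 had 1.84 TPM in replicate 1 and 0.15 TPM in replicate 2. Most Mx1 signal in both libraries was therefore assigned to a transcript annotated as a decay target. Mx2 had 3.17 TPM (103 fragments) in replicate 1 and 1.77 TPM (76 fragments) in replicate 2. The coding Mx2-201 gave 0.50 TPM in replicate 1 and 0.92 TPM in replicate 2, the opposite order to the gene as a whole. With so few fragments the log2 count ratio of Mx2 was 0.03 (95% interval −0.41 to 0.48), and no difference was detectable at this depth.

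The interferon-inducible GTPases of the IRG and GBP families, which act at the vacuoles of intracellular pathogens, were all at or above 12.6 TPM. Gbp3 had 38.99 TPM in replicate 1 and 33.1 TPM in replicate 2. Gbp2 had 32.1 TPM in replicate 1 and 17.1 TPM in replicate 2. The 2 guanylate-binding protein genes thus kept the same order by TPM in both libraries. By fragments the order was reversed. Gbp2 had 3182 fragments in replicate 1 and 1212 in replicate 2, and Gbp3 had 975 in replicate 1 and 536 in replicate 2. Igtp had 23.8 TPM in replicate 1 and 22.1 TPM in replicate 2. Irgm1 had 22.4 TPM in replicate 1 and 12.6 TPM in replicate 2. All 4 were higher in replicate 1, to different degrees: the log2 count ratio was 0.98 for Gbp2 (95% interval 0.89 to 1.08) and 0.97 for Irgm1 (0.83 to 1.11), against 0.19 for Igtp (0.08 to 0.30). Igtp overlaps Irgm2 on the same strand, and its counts were fractional. For Gbp3, 81.5% of TPM in replicate 1 and 85.9% in replicate 2 were assigned to Gbp3-205, a short coding transcript of 477 nt.

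Parp9 and Parp14 belong to the ADP-ribosyltransferase family. Parp9 had 11.6 TPM in replicate 1 and 6.81 TPM in replicate 2, and Parp14 had 6.13 TPM in replicate 1 and 6.33 TPM in replicate 2. They lie close together on chromosome 16 and differed in this respect, the log2 count ratio being 0.88 for Parp9 (95% interval 0.73 to 1.02) and 0.04 for Parp14 (−0.06 to 0.14).

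Among the other effectors, Ifi27 (chromosome 12, 103434211 to 103440239) had the highest mean TPM of the 39 genes, at 1152 TPM in replicate 1 and 957 TPM in replicate 2, a mean of 1054 ± 137 TPM (SD, n = 2); in replicate 2 Ifitm2 lay above it. A retained-intron form of 527 nt, Ifi27-209, took 440 TPM of it in replicate 1 and 473 TPM in replicate 2. Bst2 (chromosome 8, 71534255 to 71537456), the tetherin that holds budding virions on the cell surface, had 182 TPM in replicate 1 and 468 TPM in replicate 2. Among the 39, only Bst2 had a count interval wholly beyond 2-fold on the side of replicate 2; its log2 count ratio was −1.28 (95% interval −1.33 to −1.22). It has a single annotated transcript, so the choice of transcript does not enter its TPM.

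Bst2 is also a marker of plasmacytoid dendritic cells, the main producers of type I interferon. That list of 4 genes, Bst2 included, summed to 291 TPM in replicate 1 and 576 TPM in replicate 2, and the excess in replicate 2 was in Bst2: Siglech had 26.2 TPM in replicate 1 and 28.7 TPM in replicate 2, Tcf4 had 75.2 TPM in replicate 1 and 74.1 TPM in replicate 2, and Ccr9 had 7.76 TPM in replicate 1 and 6.00 TPM in replicate 2. Other lists differed in either direction. The 5 luminal epithelial markers summed to 806 TPM in replicate 1 and 1504 TPM in replicate 2, and the 4 B cell markers to 334 TPM in replicate 1 and 594 TPM in replicate 2, most of that excess being in Cd79a (169 TPM in replicate 1 and 380 TPM in replicate 2). The myoepithelial markers summed to 633 TPM in replicate 1 and 497 TPM in replicate 2. Most of that gap was in Acta2 (476 TPM in replicate 1 and 353 TPM in replicate 2), and Oxtr was higher in replicate 2. The endothelial ones summed to 178 TPM in replicate 1 and 164 TPM in replicate 2, although Cdh5 was higher in replicate 2. The macrophage markers summed to 340 TPM in replicate 1 and 442 TPM in replicate 2, although 3 of the 5 were higher in replicate 1. None of the markers in these lists was at 0 in both libraries, and their part in the Bst2 difference was not tested.

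Samhd1, a hydrolase that depletes nucleotides needed for viral DNA synthesis, had 62.7 TPM in replicate 1 and 77.6 TPM in replicate 2. Xaf1, a factor linked to apoptosis, had 44.0 TPM in replicate 1 and 26.3 TPM in replicate 2. Ifi35 had 43.0 TPM in replicate 1 and 44.7 TPM in replicate 2. These 3 genes lay in the upper middle of the set. Rtp4, which belongs to a family of chaperones for receptors, had 17.1 TPM in replicate 1 and 11.8 TPM in replicate 2. Ifi44 had 4.58 TPM in replicate 1 and 1.60 TPM in replicate 2. Rsad2, the radical SAM enzyme viperin, had 3.18 TPM in replicate 1 and 3.69 TPM in replicate 2. Ifi44 was among the genes that differed most, its log2 count ratio being 1.42 (95% interval 1.14 to 1.71). That of Rsad2, also low, was −0.13, and its interval (−0.33 to 0.06) spanned 0.

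Over the whole set, 25 of 39 genes (64.1%) had the higher TPM in replicate 1, against 47.6% of the 14510 genes whose mean reached 1 TPM. The median difference in log2(TPM + 1), replicate 1 minus replicate 2, was 0.21, against −0.05 for all genes. By count intervals, 4 genes lay wholly beyond 2-fold and higher in replicate 1, namely Ifit1, Ifit3, Oasl2 and Ifi44, where 9.43% of all genes did so; none of the 4 was called once the GC trend was removed. On the other side Bst2 stood alone, where 8.73% of all genes did so. Together these were 5 of 39 genes, or 12.8%, and the share among all genes was 18.2%, so the set held no more large differences than genes in general. By TPM ratio alone, 5 genes passed 2-fold higher in replicate 1 (13.2% of all genes) and 6 higher in replicate 2 (15.8%); the second count includes Irf1, Irf7, Irf9 and Trim25, whose count intervals did not reach 2-fold.

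**Figure D4:**
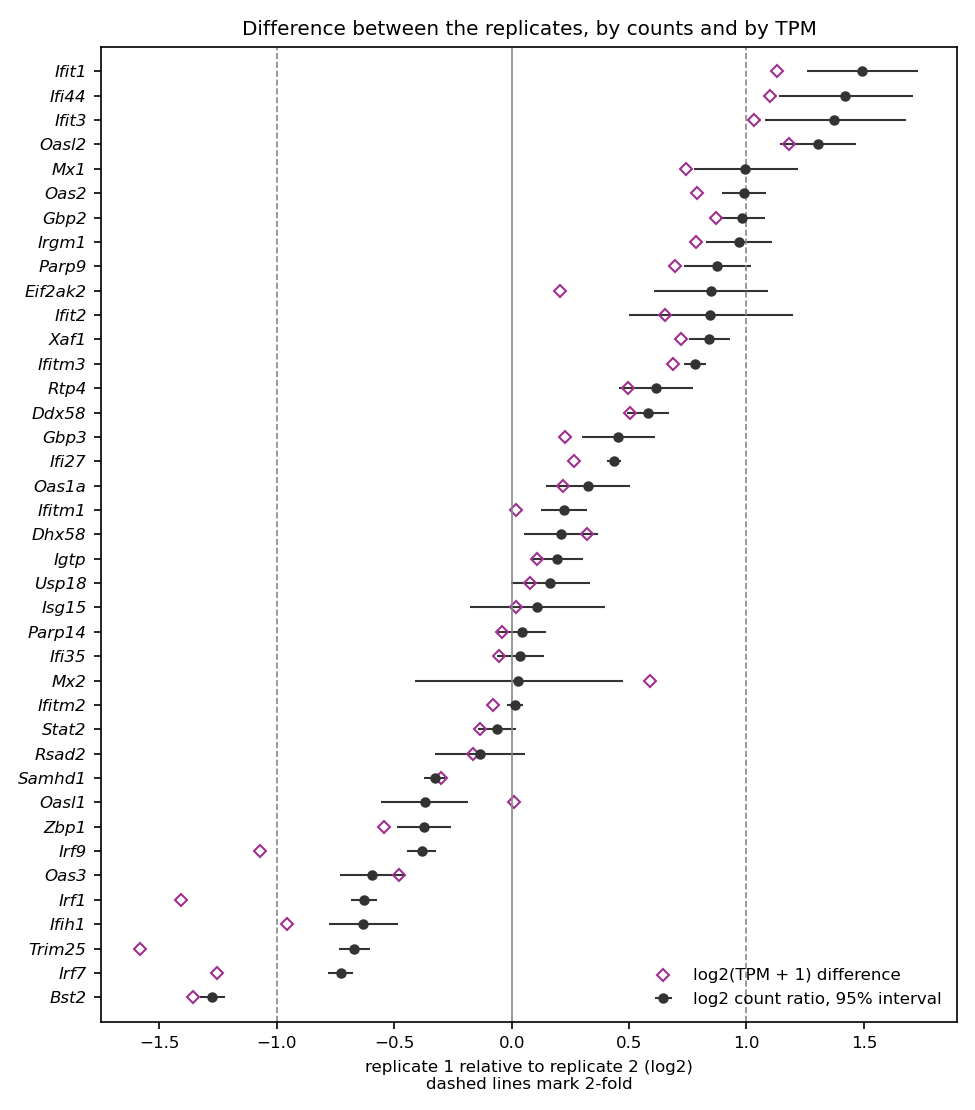
Difference between the replicates for each of the 39 genes on the log2 scale, replicate 1 relative to replicate 2; filled circles are count ratios with 95% intervals, open diamonds are differences in log2(TPM + 1), and dashed lines mark 2-fold. Circle and diamond lie close for most genes and far apart for Irf1, Irf7, Irf9, Trim25, Eif2ak2 and Mx2.

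At a bound of 1.5-fold, 12 genes lay wholly higher in replicate 1 (21.1% of all genes did) and 3 in replicate 2 (18.7%). Those higher in replicate 1 were Ifit1, Ifit3, Ifitm3, Oas2, Oasl2, Eif2ak2, Mx1, Irgm1, Gbp2, Parp9, Xaf1 and Ifi44, and those higher in replicate 2 were Irf7, Trim25 and Bst2. The mean transcript length used for TPM differed by more than 1.2 times between replicates in 9 of the 39 genes. It was shorter in replicate 2 in Irf1, Irf7, Irf9, Ifih1, Trim25 and Eif2ak2, and shorter in replicate 1 in Ifit2, Oasl1 and Mx2. Among all genes, 10.9% had the shorter length in replicate 2 by that margin and 6.00% in replicate 1.

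GC content moved with these differences. Across the 39 genes, whose mean transcript GC content ranged from 43.3% to 57.6%, the difference in log2(TPM + 1) had a Spearman rho of −0.51 with GC content and a Pearson r of −0.54. Across 13272 protein-coding genes rho was −0.53 and r was −0.40; these are correlations across genes that share the same 2 libraries, and genes are not independent replicates. The 13 genes with the lowest GC content, Ifit1, Ifit3 and Ifi44 among them, had a median difference of 0.65, and 10 of them were higher in replicate 1. The 13 in the middle had a median of 0.23, and 10 were higher in replicate 1. The 13 with the highest, Bst2, Irf1 and Irf7 among them, had a median of −0.08, and 5 were higher in replicate 1. The median thus fell with GC content, while the count of genes higher in replicate 1 was lower only in the genes of highest GC content.

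With the GC trend of all genes at a mean of 1 TPM or more removed, protein-coding or not, the median difference of the 39 was 0.14. Ifit1 then stood at 0.60, Ifit3 at 0.70, Ifi44 at 0.59, Oasl2 at 1.02 and Bst2 at −0.78, all nearer to 0 than before. Others lay farther from 0: Ifih1 stood at −1.42, against −0.96 before, Samhd1 at −0.63, against −0.30, Rsad2 at −0.56, against −0.17, and Oasl1 at 0.50, against 0.01. Trim25 was at −1.58 with and without the trend. With the trend removed from the count ratios, none of Ifit1, Ifit3, Oasl2, Ifi44 and Bst2 had an interval wholly beyond 2-fold, and Ifih1 did, at −1.29 (95% interval −1.43 to −1.14) on the side of replicate 2. Whether GC content, tissue makeup or the pooled animals account for any of these differences was not tested.

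**Figure D5:**
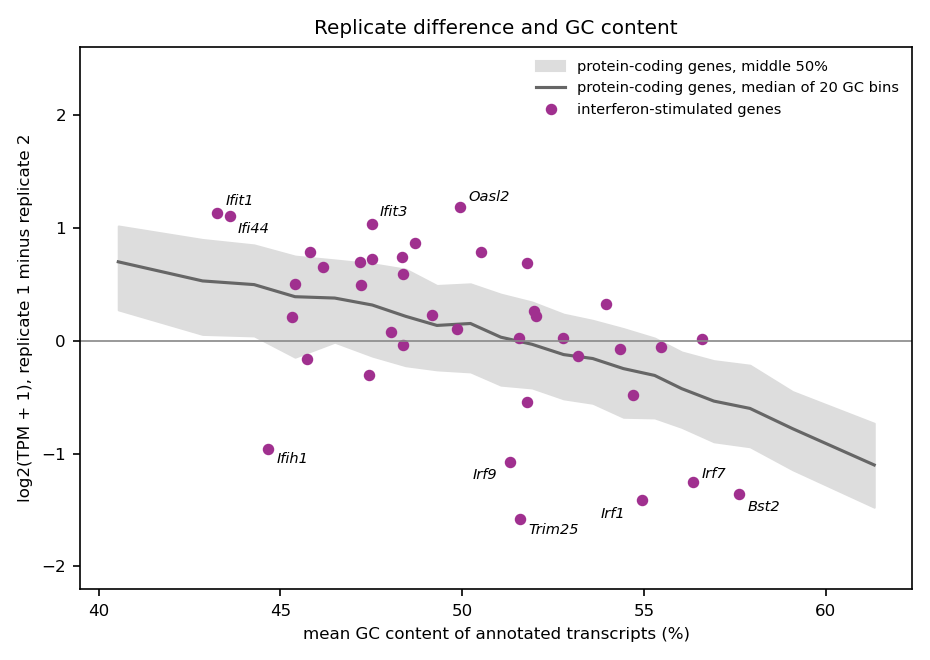
Difference in log2(TPM + 1), replicate 1 minus replicate 2, against mean GC content of annotated transcripts in percent; points are the 39 interferon-stimulated genes, the line is the median of protein-coding genes in 20 GC bins and the band their middle 50%. Both the line and the points fall toward higher GC content, and Ifih1, Irf9, Trim25 and Irf1 are among the points below the band.

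In the transcript tables, 30 of the 39 genes had more than 1 transcript, and the leading transcript was the same in both replicates in 24 of these. It differed in Irf1, Irf7, Ifih1, Oasl1, Mx2 and Parp9. More than 25% of the gene's TPM came from transcripts not annotated as protein-coding in 14 genes in replicate 1 and 11 in replicate 2, 10 of them in both. For Parp9, where both leading forms are coding, Parp9-201 took 79.1% in replicate 1 and 28.9% in replicate 2, and Parp9-203 took 13.7% in replicate 1 and 51.9% in replicate 2. Gene-level TPM of the set thus does not stand for protein-coding RNA alone. The same transcript counts were not made over all genes, so whether they are particular to this set was not tested.

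Of the wider pathway, 104 genes were listed and 102 found. The upstream ligands were nearly absent: 19 of 21 interferon genes had no fragment in either library. A count of 0 allows up to 3 fragments, which is 0.0821 to 0.198 TPM for the 19 genes at 0 in replicate 1 and 0.0782 to 0.281 TPM for the 20 at 0 in replicate 2. Ifng, the gene of interferon gamma, had 10 fragments (0.23 TPM) in replicate 1 and 2 fragments (0.07 TPM) in replicate 2, and Ifnz had 3.11 fragments in replicate 1 and 0 in replicate 2. All 6 receptor genes were above 1 TPM in both libraries. Ifnar2, a chain of the type I receptor, had 64.8 TPM in replicate 1 and 97.5 TPM in replicate 2, and its partner Ifnar1 had 22.7 TPM in replicate 1 and 22.8 TPM in replicate 2. The mean transcript length of Ifnar2 was shorter in replicate 1. Its log2 count ratio was −1.02 (95% interval −1.08 to −0.96), against a log2(TPM + 1) difference of −0.58. Ifnlr1, the specific chain of the type III receptor that is known from epithelia, was the lowest, at 4.47 TPM in replicate 1 and 3.62 TPM in replicate 2. Interferon RNA was thus at or near the floor of detection in tissue where the receptors and all 39 target genes were measurable.

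Jak1, a kinase that connects receptor and gene, had 58.1 TPM in replicate 1 and 52.8 TPM in replicate 2. Among 5 negative regulators, both SOCS genes, which encode feedback inhibitors of JAK kinases, lay beyond 2-fold toward replicate 2. Socs1 had 19.3 TPM in replicate 1 and 96.7 TPM in replicate 2, and Socs3 had 15.9 TPM in replicate 1 and 50.4 TPM in replicate 2. In the sensing pathway, 12 of 13 genes had a mean of at least 1 TPM, and Irf5 and Irf8 lay beyond 2-fold toward replicate 2, Irf8 at 28.4 TPM in replicate 1 and 122 TPM in replicate 2. Tlr3, a receptor for double-stranded RNA, lay beyond 2-fold toward replicate 1, at 4.48 TPM in replicate 1 and 1.80 TPM in replicate 2. Of all genes at a mean of 1 TPM or more, 8.73% lay beyond 2-fold toward replicate 2 and 9.43% toward replicate 1. With lists this short, a few such genes do not set the lists apart from genes in general. The higher TPM of several IRF genes and of the SOCS genes thus stood in the same library. For Irf1, Irf7 and Irf9 the count intervals did not reach 2-fold. For Irf8, the retained-intron Irf8-202 (764 nt) had 2.58 TPM in replicate 1 and 64.2 TPM in replicate 2. The coding Irf8-201 had 23.9 TPM in replicate 1 and 54.2 TPM in replicate 2. Whether these differences are linked was not tested.

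Of 52 further interferon-stimulated genes, 50 were found and 49 had a mean of at least 1 TPM. Their median difference in log2(TPM + 1) was 0.14, and 4 lay beyond 2-fold toward replicate 1 (Ifi204, Ifit3b and Phf11d among them) and 2 toward replicate 2 (Trim14 and Epsti1), where 9.43% and 8.73% of all genes did so. The highest was Ifi27l2a, a relative of Ifi27, at 3822 TPM in replicate 1 and 4170 TPM in replicate 2, followed by Ly6e, a membrane protein gene, at 1907 TPM in replicate 1 and 1779 TPM in replicate 2. Both exceeded every one of the 39 genes in both libraries.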

How the data were processed

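Gene and transcript tables were used as deposited. Per the file headers they hold expected counts, TPM, FPKM, posterior mean TPM and the percent of a gene's TPM taken by each isoform. Per the authors' text notes, the assembly is mm10 and the annotation GENCODE M4; the aligner and quantifier are not stated in the sources used here. GENCODE M21, of the same build, supplied symbols for 42462 gene identifiers, and biotypes, positions and GC content. Spike-ins (96 entries) and 26248 entries named by a number were kept out of gene totals.

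Levels were compared on log2(TPM + 1), replicate 1 minus replicate 2, where the mean reached 1 TPM. Ratios of expected counts, made whole by rounding and scaled to library totals, were given 95% Clopper-Pearson intervals, and a gene was called when the whole interval exceeded 2-fold. GC trends were removed in 20 bins. The floor was 3 fragments. No group contrast exists, so no test was run. Motifs were searched in RefSeq windows (33 entries for 29 genes). Contigs and junctions, on mm9, were not used.

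The 39 genes and all lists were chosen with earlier results of these data known. All 39 are named. Of the other lists, genes were named from the 5 with the highest mean TPM and up to 5 beyond 2-fold. Ifnlr1 was named outside this rule, as the lowest receptor gene. Annotated genes overlapped 15 of the 39, 5 of them on the same strand, and 7 had fractional counts. Scaling factors for the alternatives came from edgeR 4.0.16 and DESeq2 1.42.0 under R 4.3.3; Python 3.11.15 was used with scipy 1.17.1, pandas 2.3.3, numpy 2.4.6 and, for plots, matplotlib 3.10.9.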

Additional observations from a re-analysis of the deposited data

How the results depend on the processing

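The median log2 difference of the 39 genes, 0.21, was 0.42 with TPM rescaled without mitochondrial and muscle genes (all genes 0.19), −0.52 with spike-in totals (all genes −0.62) and 0.0201 among genes with a mean of at least 5 TPM. With pseudocounts 0.1 and 5, posterior mean TPM, TMM, DESeq2 size factors, GC removal and no filter it lay between 0.07 and 0.23. In each scaling the 39 lay above the median of all genes. The count of 5 genes beyond 2-fold (18.2% of all genes) became 9 with spike-in totals (33.9%), all higher in replicate 2, and 2 with a mean of at least 5 TPM (17.4%), 1 in each direction. After GC removal it was 1 (11.4%), higher in replicate 2, and all 5 original calls were lost. It was 15 at 1.5-fold (39.8%), 0 at 4-fold (3.91%) and 11 by TPM ratio (29.0%), and 5 with TMM, 4 with DESeq2 and 5 with no filter. All 39 genes stayed at 1 TPM or more by FPKM and in each replicate alone, and 31 reached 5 TPM. The summed TPM of 3848 was 4492 without mitochondrial and muscle genes, and 3762 to 3934 with 1 replicate left out. Without those genes the sum was 4809 in replicate 1 and 4175 in replicate 2, so the order of the replicates was reversed. Single genes changed sign most often with spike-in totals (12 of 39) and GC removal (6 of 39). No paired analysis was possible because the labels give 1 group.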
